A study of Mus musculus with 24 samples.

Results

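RNA sequencing was used to ask what the agent labelled TCA did to transcripts of mouse cells that carry the tetra form of the glucocorticoid receptor. The comparison set 3 libraries of cells given TCA against 3 libraries of cells given vehicle, taken by their labels from the 24 libraries of the series. Of the 26188 genes listed for these 6 libraries, the 13075 with a mean of at least 10 normalised counts were tested. The cells are the line labelled C127l, described as adenocarcinoma cells and generally known as a mouse mammary line. All libraries of the series carry the genotype GRKO, usually read as a knockout of the endogenous receptor, together with a GFP-tagged mouse receptor added back. The groups used here carried GFP-mGRtetra and received vehicle, 100 µM TCA, 100 nM Cort (corticosterone), or both agents, with 3 libraries each. TCA and Cort were each given for 2 h, after 24 h in medium with charcoal-stripped serum, which lowers its steroid content. The line with GFP-mGRwt, treated in the same way, served as the comparison across receptor forms. The labels do not spell out TCA or name the vehicle, and they do not say whether each line is 1 clone. They also do not say that replicates were separate cultures, so the p-values measure the spread between these samples.

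The series studies bile acids and the glucocorticoid receptor, and TCA is the usual abbreviation of taurocholic acid, a taurine-conjugated bile acid. The glucocorticoid receptor binds corticosterone, moves to the nucleus and regulates genes such as Fkbp5, Per1 and Tsc22d3. In studies of this receptor, the name tetra is used for a form with a substitution in the DNA-binding domain that favours tetramers. Several gene programmes respond within hours to signals at the cell surface and the cytoskeleton. YAP and its partners of the TEAD family induce Ccn1, Ccn2 and Ankrd1, TGF-beta signalling through SMAD proteins induces its own inhibitor Smad7, and MAP kinase signalling induces its own Dusp phosphatases.

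The 6 libraries held 22.1 M to 28.4 M recovered exon reads each, and 16578 to 16944 genes had at least 1 read. A count of 3 reads, taken as the detection floor, was worth 0.106 to 0.136 CPM, a limit that covers counting error only. TCA replicate 1 stood apart from the other 5 libraries. It lay at -11.7 on the first principal component, which held 48.4% of the variance, while the others lay between -1.14 and 4.92. It was the highest or the lowest library for 54.5% of the genes tested, against 17.2% to 36.1% for each of the others. Medians of the gene lists described are therefore also given without it. Nr3c1, the glucocorticoid receptor gene, measured 5429, 5279 and 5656 normalised counts with vehicle and 6479, 5797 and 5337 with TCA, a log2 difference of 0.10 ± 0.07 (SE). These groups overlapped, and since every group carries both the knockout and an added receptor, the level does not check the labels. The epithelial markers Krt5, Epcam, Cldn3, Cldn4 and Esrp1 were at 0 in all 6 libraries. Of the 15 epithelial markers, 2 passed the filter on low values, Krt14 and Grhl2, the latter at 17.1 to 33.8 counts. Krt8 and Krt18, keratins of simple epithelia, reached at most 9.62 and 1.88 counts, while Krt14, a keratin of basal epithelial cells, measured 523 to 651 counts in every library. Most of the epithelial markers were thus low or absent, and the cells are called by their line. Of 18 mesenchymal markers 17 passed the filter, with Vim, an intermediate filament gene, at 87888 to 93994 counts. The summed mesenchymal markers measured 251068 to 255605 counts with vehicle and 243437 to 291398 with TCA, and none of the 17 passed the test. The mast cell markers Kit, Fcer1a, Ms4a2, Cpa3, Cma1 and Mcpt4 were at 0 in all 6 libraries, as were the immune markers Ms4a1 and Tyrobp and the milk protein genes Csn2 and Lalba. Other markers of the same lists were detected in every library, with Csn3, a milk casein gene, at 146 to 176 counts, Gata3, a factor of luminal mammary cells, at 636 to 744, and Cd68, a macrophage marker, at 83.3 to 106. In bulk samples of this kind, fewer cells of a type and less RNA per cell cannot be told apart.

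TCA raised 2 genes in the tetra line, Ccn1 and Ankrd1, both well-known YAP targets, and no other gene passed the test. These 2 calls are 0.0153% of the 13075 genes tested, at an adjusted p below 0.05 by limma with Benjamini-Hochberg adjustment. No gene was called lower (0%), and an unadjusted p below 0.05 was reached by 524 genes (4.01%), 276 higher (2.11%) and 248 lower (1.9%). The limma voom fit also called 2 genes higher and 0 lower. Ccn1, which encodes the secreted matrix protein CYR61 (chromosome 3, 145646971 to 145649985 in mm10), measured 3633, 3441 and 3915 normalised counts with vehicle and 10204, 7534 and 7946 with TCA. Every TCA library lay far above every vehicle library. The mean went from 3663 ± 238 to 8561 ± 1438 (SD, n = 3 each), which is 2.34-fold. The deposited values are variance-stabilised on a scale like log2, and differences on it understate the change of low genes. The log2 difference of Ccn1 was 1.14 ± 0.09 (SE, 95% interval 0.95 to 1.34), with an adjusted p of 4.22e-05 in limma. Ankrd1, which encodes an ankyrin repeat protein of muscle sarcomeres and stretched cells (chromosome 19, 36111965 to 36119844 in mm10), measured 2408, 2445 and 2544 counts with vehicle and 5749, 4161 and 3720.2 with TCA. The groups did not overlap, and replicate 1 was the highest of the 3 TCA libraries for both genes. The mean of Ankrd1 went from 2466 ± 70.5 to 4543 ± 1067 (SD, n = 3 each), 1.84-fold, with a log2 difference of 0.78 ± 0.11 and an adjusted p of 0.0186 in limma. Without TCA replicate 1, both genes were still called, and the 6 genes called then included Dusp8, Plk2 and Dusp1, and 6 were also called without TCA replicate 3. Ankrd1 was not called without vehicle replicate 1 (adjusted p = 0.202), vehicle replicate 2 (adjusted p = 0.232) or TCA replicate 2 (adjusted p = 0.0901), and 1 gene, Ccn1, was left in each of these limma fits. Scaling to total exon reads also left Ccn1 alone (Ankrd1 adjusted p = 0.0659), and without the filter on low values neither gene was called (Ccn1 adjusted p = 0.401, limma).

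The promoters of these 2 genes are shown because both hold the TEAD core GGAATG or its reverse complement CATTCC, set in capitals. Each is the 250 bases before the RefSeq start site in GRCm38.p6, the assembly also called mm10, written 5′ to 3′ on the gene's strand.
Ccn1 (chr3:145649986-145650235, minus strand): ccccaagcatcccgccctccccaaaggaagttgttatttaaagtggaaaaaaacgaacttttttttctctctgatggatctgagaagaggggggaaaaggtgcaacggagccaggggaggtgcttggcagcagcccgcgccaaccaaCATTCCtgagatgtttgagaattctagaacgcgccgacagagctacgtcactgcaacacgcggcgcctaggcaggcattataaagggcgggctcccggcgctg
Ankrd1 (chr19:36119845-36120094, minus strand): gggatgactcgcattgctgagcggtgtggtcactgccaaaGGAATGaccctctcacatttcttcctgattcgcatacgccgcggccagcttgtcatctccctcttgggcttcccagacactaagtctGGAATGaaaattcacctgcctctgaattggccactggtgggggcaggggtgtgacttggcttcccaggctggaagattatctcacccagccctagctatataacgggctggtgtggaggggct
The Ccn1 match ended 97 bases before the start site, and the 2 Ankrd1 matches ended 204 and 117 bases before it. The core is short, and 10.71% of the 10074 promoters of tested genes held it on either strand, as did 12.64% of all 32851 promoters.

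The YAP target list held 22 genes, of which 21 were tested, 2 were called higher and none lower. The median log2 difference over the 21 was 0.10, against -0.000254 over all genes tested. Above 0 were 20 of the 21, beside 49.9% of all genes tested. Groups did not overlap for 6 members, all higher with TCA, while over all genes tested the groups did not overlap for 3.89% higher and 5.1% lower. Among these 6 was Ccn2, which encodes the matrix protein CTGF, at 39, 55.4 and 44.4 counts with vehicle and 135, 62 and 76.5 with TCA. Its highest library was again replicate 1, and its log2 difference of 0.27 had an adjusted p of 0.941 in limma. Amotl2, an angiomotin family member that binds YAP, measured 7061, 7683 and 7563 counts with vehicle and 10057, 8322 and 8625 with TCA, a log2 difference of 0.26 ± 0.07 (adjusted p = 0.941, limma). Nuak2, a kinase of the AMPK-related family, measured 376, 397 and 378 counts with vehicle and 543, 436 and 483 with TCA, a log2 difference of 0.21 ± 0.06. The list's median differed between TCA libraries, at 0.20, 0.01 and 0.07 for replicates 1, 2 and 3, and was 0.038 without replicate 1, with 13 of 21 above 0. For TCA with Cort against Cort, described below, 14 of 21 were above 0, beside 49.26% of all genes tested there. The list's median was then 0.08 on log2 of the count plus 1. Groups did not overlap for 6 members higher and 1 lower, beside 4.52% and 5.2% of all genes.

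**Figure D1:**
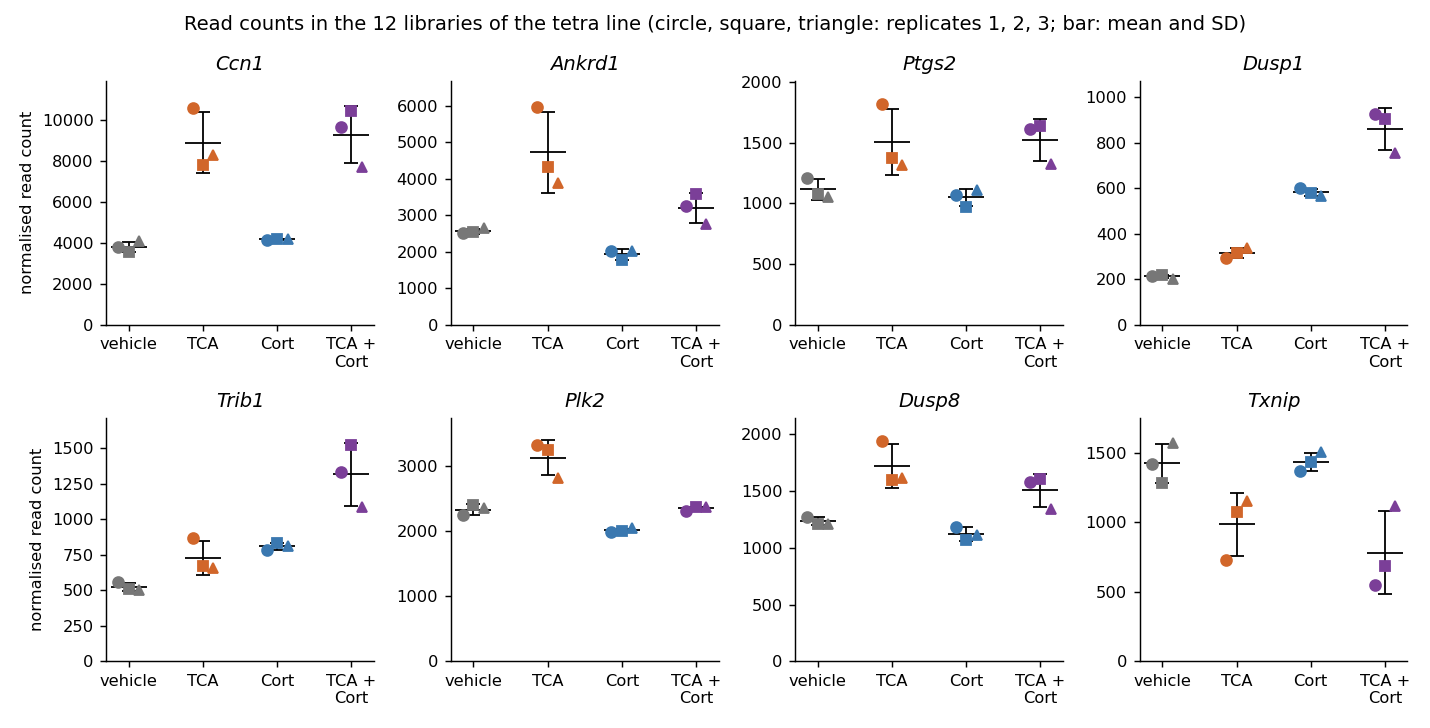
Normalised counts (vertical axes, linear, from 0) of 8 genes in the 12 tetra libraries by group, scaled over all 12, so that values differ slightly from those scaled over 6 libraries. Points are libraries and bars the mean ± SD of 3. Ccn1 and Ankrd1 are higher with TCA in both pairs of groups, and Txnip is lower.

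Of 24 genes of the TGF-beta and BMP response, 19 were tested and 0 called with TCA alone. Their median log2 difference was 0.06, and the groups did not overlap for 7 members higher and 1 lower, beside 3.89% higher and 5.1% lower over all genes tested. Smad7, an inhibitor of TGF-beta receptors, measured 1813, 1845 and 1747 counts with vehicle and 2503, 2273 and 2210.0 with TCA (log2 difference 0.32, adjusted p = 0.116, limma). Inhba, which encodes the activin A subunit, measured 493, 498 and 563 counts with vehicle and 927, 687 and 684 with TCA (log2 difference 0.38, adjusted p = 0.243, limma). These were 1.29-fold and 1.48-fold, and neither gene's groups overlapped. Id1, a BMP-induced inhibitor of helix-loop-helix factors, had a log2 difference of 0.25. The list's median by TCA replicate was 0.21, 0.02 and 0.02, and 0.014 without replicate 1, with 10 of 19 above 0.

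Feedback inhibitors of MAP kinases and immediate early genes formed the next group. Of 26 MAP kinase feedback genes, 21 were tested and 0 called, with 17 above 0 and a median log2 difference of 0.06. Dusp8, a phosphatase acting on JNK and p38 (chromosome 7, 142079487 to 142095284), measured 1221, 1168 and 1164 counts with vehicle and 1868, 1542 and 1549 with TCA (1.40-fold, adjusted p = 0.0813, limma). Dusp1, a nuclear phosphatase of the same kinases and itself a glucocorticoid target, measured 207, 210.4 and 195 counts with vehicle and 283, 303 and 325 with TCA (1.49-fold, log2 difference 0.29 on the deposited scale, adjusted p = 0.0813, limma). Errfi1, an inhibitor of the EGF receptor, measured 259, 292 and 268 counts with vehicle and 337, 347 and 326 with TCA, and its groups did not overlap either. The groups did not overlap for 7 of the 21 genes higher and 1 lower, where all genes tested gave 3.89% and 5.1%. Without TCA replicate 1, 15 of the 21 were above 0 at a median of 0.069. Of 26 immediate early genes of the AP-1, Egr and related families, 24 were tested and 0 called, with 21 above 0 and a median of 0.08. Jun, a subunit of AP-1, measured 3372, 3464 and 3397 counts with vehicle and 4786, 4034 and 4383 with TCA (log2 difference 0.33, adjusted p = 0.172, limma), and Fosl2, another subunit, had a log2 difference of 0.25. The immediate early median was 0.11, 0.06 and 0.09 for TCA replicates 1, 2 and 3, so that it lay above 0 in each, and 0.071 without replicate 1. Plk2, a polo-like kinase and p53 target (chromosome 13, 110395044 to 110400843), measured 2146, 2304 and 2258 counts with vehicle and 3183, 3118 and 2696 with TCA (1.34-fold, adjusted p = 0.0813, limma). It led the p53 target list, of which 27 of 28 were tested and 0 called, with 19 above 0 and a median of 0.05 that became -0.01 without TCA replicate 1. In the inflammatory list 18 of 31 were tested and 0 called, with 14 above 0 and a median of 0.05, and 14 above 0 at 0.073 without TCA replicate 1. Ptgs2, the inducible cyclooxygenase COX-2, measured 1160.2, 1037 and 1016 counts with vehicle and 1748, 1323 and 1265 with TCA (1.35-fold, adjusted p = 0.941, limma). Its vehicle and TCA libraries did not overlap, and replicate 1 was the highest for TCA.

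The other 6 libraries of the tetra line give the same contrast in the presence of Cort, in samples that the comparison above did not use. TCA with Cort against Cort alone called 8 genes of 12869 tested (0.0622%) and all were higher. None was called lower (0%), and 845 genes had an unadjusted p below 0.05 in limma. Values with Cort are normalised counts scaled over these 6 libraries, and the fit over all 12 tetra libraries used counts scaled over the 12. In both, log2 differences are of the normalised count plus 1, which compresses low genes less than the deposited scale. Among the 8 were Ccn1, Ankrd1, Trib1, Dusp1, Errfi1, Ptgs2 and Ccn2, named after their values were seen. Ccn1 measured 4336, 4342 and 4383 counts with Cort and 10070.4, 10874 and 8054 with both agents, 2.22-fold, a log2 difference of 1.14 (adjusted p = 2.58e-05, limma). Ankrd1 measured 2098, 1837 and 2122 counts with Cort and 3399.6, 3737 and 2887 with both, 1.65-fold (adjusted p = 0.00373, limma). Without Cort the folds were 2.34 and 1.84, and in both settings every library with TCA lay above every one without. Trib1, a pseudokinase that brings proteins to the COP1 ligase (chromosome 15, 59648654 to 59657099), measured 817, 865 and 849.6 counts with Cort and 1390.1, 1586 and 1131 with both (1.62-fold, adjusted p = 0.0144, limma). Without Cort, Trib1 measured 535, 488 and 485 with vehicle and 834, 643 and 627 with TCA (adjusted p = 0.537, limma). Smaller rises were seen, of 1.48-fold for Dusp1, 1.36-fold for Errfi1, 1.45-fold for Ptgs2 and 1.51-fold for Ccn2. TCA plus Cort replicate 3 lay at 8.95 on the first principal component of these 6 libraries, among the Cort libraries at 4.46 to 13.7, while its fellow replicates lay at -21.0 and -10.8. Leaving it out gave 268 calls, 169 higher and 99 lower. Leaving out Cort replicate 1 or 3 or TCA plus Cort replicate 2 gave 3, and leaving out Cort replicate 2 or TCA plus Cort replicate 1 gave 1.

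A fit over all 12 tetra libraries, averaging the TCA effect without and with Cort, called 15 genes higher and 1 lower of 12846 tested (0.117% and 0.00778%). Most of these 16 were on the gene lists, which were chosen with earlier results of these data known, so their membership is a description only. They are named after their values were seen. Ccn1, Ankrd1, Ccn2 and Nuak2 are on the YAP list, with log2 differences of 1.18, 0.79, 0.75 and 0.35. Smad7 and Inhba are on the TGF-beta and BMP list, at 0.36 and 0.39. Dusp1, Dusp8 and Errfi1 are feedback inhibitors of MAP kinase signalling, at 0.57, 0.45 and 0.38. Jun, Plk2 and Ptgs2, of the immediate early, p53 and inflammatory lists, were at 0.38, 0.32 and 0.47. Trib1 and Fhl2, a LIM domain protein of the actin cytoskeleton, were at 0.58 and 0.59. The adjusted p of the 15 ran from 5.38e-08 for Ccn1 to 0.0466 for Ccn2 in limma. Leaving out each of the 12 libraries in turn, 11 genes were called in every fit, among them Ccn1, Ankrd1, Errfi1, Dusp1, Trib1, Plk2, Smad7, Dusp8, Jun and Ptgs2. The number called in these fits was 11 to 21 and, without TCA plus Cort replicate 3, it was 37.

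Txnip, which encodes the thioredoxin-interacting protein that restrains glucose uptake, was the only gene called lower in the 12-library fit. It lies on chromosome 3, 96557957 to 96561857, in mm10. Txnip measured 1365, 1239 and 1515 counts with vehicle and 704, 1041 and 1109.5 with TCA, a mean 1.44-fold lower (log2 difference -0.43 ± 0.10, adjusted p = 0.681, limma). With Cort it measured 1427, 1495 and 1568 counts and with both agents 573, 712 and 1163, a mean 1.83-fold lower (adjusted p = 0.0753, limma). Neither pair of groups overlapped, and the average log2 difference was -0.74 ± 0.13 with an adjusted p of 0.0217 in limma. It was called in 6 of 13 fits, made up of the full fit and the 12 that each left out a library.

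Of 12846 genes, 0 had a TCA effect that differed between the presence and absence of Cort by limma, and 510 had an unadjusted p below 0.05. With Cort the groups did not overlap for 4.52% of genes higher and 5.2% lower, close to the shares without it. Over the 12292 genes tested in both, groups did not overlap and TCA was higher in both for 59 genes (0.48%), which are 12.2% of the 484 higher without Cort and 10.6% of the 557 higher with it. TCA was lower in both for 41 genes (0.334%), or 6.50% of 631 and 6.31% of 650. Opposite directions were seen for 7 genes higher without and lower with Cort, and for 16 the other way. Among the 59 were 7 of 19 TGF-beta and BMP genes (among them Id1, Smad6, Smad7, Skil, Pmepa1 and Inhba) and 5 of 21 YAP targets (Ccn1, Ccn2, Ankrd1, Amotl2 and Nuak2). They also included 5 of 21 MAP kinase feedback genes (Dusp1, Dusp6, Dusp8, Dusp16 and Errfi1), 3 of 27 p53 targets (Gadd45a, Gadd45g and Plk2), and 2 of 24 immediate early genes (Fosl2 and Jun). Across all genes, the effects without and with Cort had a Pearson r of 0.0992 and a Spearman rho of 0.0598, as a description over 12846 genes, which are not independent replicates.

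**Figure D2:**
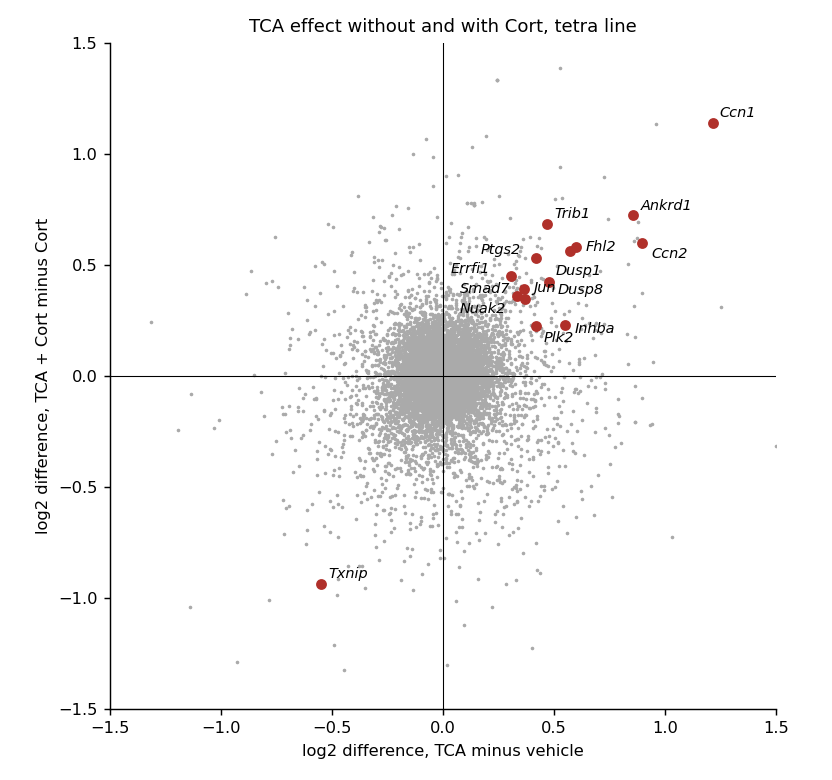
Log2 difference of TCA against vehicle (horizontal axis) and of TCA with Cort against Cort (vertical axis) for each gene tested in the 12 tetra libraries. Grey points are genes, points beyond 1.5 are drawn at the edge, and red points are named genes called in the fit over all 12. The red genes were chosen on the average of the 2 plotted effects, which sets their place, with Txnip at the lower left and the others at the upper right.

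Promoters of 11 of the 16 genes were matched, and 4 of these 11 (36.36%) held the cyclic AMP response element TGACGTCA, against 2.73% of the promoters of tested genes and 1.55% of all promoters. These 4 are shown with the element in capitals, 250 bases before the start site in GRCm38.p6, and this motif was looked up after the genes were known.
Dusp1 (chr17:26508473-26508722, minus strand): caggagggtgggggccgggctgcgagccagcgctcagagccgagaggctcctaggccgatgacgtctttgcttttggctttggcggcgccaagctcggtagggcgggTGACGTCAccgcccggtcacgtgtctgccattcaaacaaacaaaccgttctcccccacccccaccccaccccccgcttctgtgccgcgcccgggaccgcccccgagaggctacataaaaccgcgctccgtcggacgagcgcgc
Dusp8 (chr7:142095285-142095534, minus strand): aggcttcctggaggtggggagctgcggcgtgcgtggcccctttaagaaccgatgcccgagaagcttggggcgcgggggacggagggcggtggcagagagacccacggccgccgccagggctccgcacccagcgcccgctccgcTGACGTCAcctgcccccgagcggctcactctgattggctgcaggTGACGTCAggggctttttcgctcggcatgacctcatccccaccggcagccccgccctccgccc
Plk2 (chr13:110394794-110395043, plus strand): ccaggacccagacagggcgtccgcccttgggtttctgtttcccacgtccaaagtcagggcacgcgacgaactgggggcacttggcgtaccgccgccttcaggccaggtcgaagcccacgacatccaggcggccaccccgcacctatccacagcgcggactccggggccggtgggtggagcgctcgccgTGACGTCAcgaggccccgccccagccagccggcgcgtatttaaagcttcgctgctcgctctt
Errfi1 (chr4:150854820-150855069, plus strand): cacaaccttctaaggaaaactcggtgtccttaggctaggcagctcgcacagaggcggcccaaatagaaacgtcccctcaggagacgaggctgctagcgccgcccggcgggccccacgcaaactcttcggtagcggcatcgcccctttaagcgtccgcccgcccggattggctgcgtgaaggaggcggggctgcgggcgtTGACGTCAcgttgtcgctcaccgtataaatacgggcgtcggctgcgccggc
The element ended 135 bases before the start of Dusp1, 99 and 55 bases before that of Dusp8, 54 before Plk2 and 43 before Errfi1. TGACGTCA reads the same on both strands, and TGANTCA, the AP-1 site, was in 0 of the 11 and in 4.33% of tested genes' promoters. Fhl2 held a CArG box, the binding sequence of SRF, ending 21 bases before its start, a motif found in 1.12% of tested genes' promoters. A match describes the letters of the window and shows no binding.

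Glucocorticoid targets were examined because the receptor is the only difference between the lines that the labels name. Of 35 genes known to be induced by glucocorticoids, 29 were tested and 0 called with TCA alone, with a median log2 difference of 0.04. The groups did not overlap for 5 members higher and 3 lower, beside 3.89% and 5.1% of all genes tested, and without TCA replicate 1 the median was -0.0063, with 14 of 29 above 0 in place of 19. Cort against vehicle called 430 genes of 12863 (3.34%) in limma, 318 higher (2.47%) and 112 lower (0.871%), including as higher 30 of 32 tested members of this list, with a median of 0.64. The TCA and Cort comparisons share the vehicle libraries, so the values are given side by side only. Fkbp5, a co-chaperone of the receptor, measured 1608, 1684 and 1709 counts with vehicle and 1619, 1633 and 1594 with TCA, a log2 difference of -0.04 (95% interval -0.15 to 0.07), and its Cort difference was 0.85. Per1, a clock gene, had a TCA difference of 0.11 (-0.01 to 0.23) and a Cort difference of 1.61. For Tsc22d3, the anti-inflammatory protein GILZ, these were 0.08 and 1.12, for the Krüppel-like factor Klf9 0.02 and 0.44, and for the acute-phase gene Orm3 -0.02 and 2.56. Sgk1, a kinase that regulates sodium channels, measured 2867, 2854 and 2876 counts with vehicle and 4450.3, 3115 and 2976 with TCA (log2 difference 0.24, adjusted p = 0.941, limma), with replicate 1 far above its fellows. Dusp1, Errfi1 and Ccn2, described above, are also on this list, and these 3 of its 32 tested members were called higher by TCA with Cort and in the fit over 12 libraries. Over all genes tested, 0.0622% and 0.117% were called higher in these 2 fits, which share the libraries with Cort. Of the 29 members tested in both, 4 (Sgk1, Dusp1, Errfi1 and Ccn2) were higher with TCA without overlap both without and with Cort, beside 0.48% of all genes tested in both. Lower in both was 1 member, Angptl4, beside 0.334% of all genes.

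Of 29 receptors and carriers of bile acids, 7 passed the filter on low values, 0 were called, and the median log2 difference was -0.01, or -0.075 without TCA replicate 1. Nr1h4, the nuclear bile acid receptor FXR, measured 76.9, 77 and 58.1 counts with vehicle and 94.2, 54.5 and 62.8 with TCA. Gpbar1, the membrane receptor TGR5, measured 6.32, 12.2 and 11.1 counts with vehicle and 5.77, 11.8 and 17.1 with TCA, and Slc10a1, the hepatic bile acid importer NTCP, 23.2, 25.4 and 35.9 with vehicle and 24, 37.4 and 47.9 with TCA. The vehicle and TCA ranges of these 3 genes overlapped. S1pr2, a sphingosine phosphate receptor that also binds conjugated bile acids, had a log2 difference of -0.09, and Vdr, the vitamin D receptor, 0.05.

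Lipid genes were examined in 3 lists, and 0 of their members were called in limma. The 24 cholesterol synthesis and uptake genes tested had a median of -0.06 with 20 below 0, and 0.0032 without TCA replicate 1, when 13 were above 0. Their median was -0.16, 0.01 and -0.0016 for TCA replicates 1, 2 and 3, and -0.32, -0.20 and -0.0015 for TCA plus Cort replicates 1, 2 and 3 against Cort. The 14 fatty acid synthesis genes tested of 15 had a median of -0.05, with 11 below 0, or -0.010 without TCA replicate 1, and over the 12 libraries 13 of 14 were below 0 at a median of -0.13. Replicate 1 of the TCA group and replicates 1 and 2 of the TCA plus Cort group thus had the lowest values of the cholesterol genes. The 15 lipid droplet genes tested of 21 had groups that did not overlap for 2, both lower, beside 5.1% of all genes tested, and 11 were below 0. Their median was -0.023, and -0.014 without TCA replicate 1, with 6 above 0. Pparg, the nuclear receptor that drives fat cell formation, measured 503, 412 and 473 counts with vehicle and 503, 479 and 505 with TCA, a log2 difference of 0.06 (-0.05 to 0.18). Plin4, a perilipin that coats lipid droplets, had a difference of -0.02 (-0.18 to 0.14). Angptl4, a secreted inhibitor of lipoprotein lipase, measured 1997, 1842 and 1901 counts with vehicle and 1499, 1702 and 1796 with TCA, which did not overlap (log2 difference -0.17, adjusted p = 0.941, limma).

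Targets of ATF4 in the integrated stress response showed 0 calls among 33 tested of 38, with 12 above 0, 21 below and a median of -0.03, or -0.011 with 15 above 0 without TCA replicate 1. Trib3, a pseudokinase induced by ATF4, measured 3318, 3896 and 3629.5 counts with vehicle and 3436, 3640.2 and 3816 with TCA, a log2 difference of 0.01 (-0.13 to 0.15). Chac1, a glutathione-degrading enzyme, had a difference of -0.06 (-0.30 to 0.18). The shared core of C/EBP-ATF elements, TGATGNAA on either strand, was in 7 of the 29 matched promoters of this list (24.14%), against 1.98% of tested genes' promoters.

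Lists of protein synthesis and respiration had medians of opposite sign without and with Cort. Of 85 cytosolic ribosomal protein genes 81 were tested and 0 called, with 71 below 0 and a median of -0.07, while with Cort 80 of 81 were above 0 with a median of 0.12. Of 83 respiratory chain subunit genes 79 were tested and 0 called, with 73 below 0 and a median of -0.07, against 70 of 75 above 0 with Cort and a median of 0.09. The TCA replicates differed here, with ribosomal medians of -0.15, 0.01 and -0.05 and respiratory medians of -0.12, -0.0035 and -0.05. The 66 replication-dependent histone genes tested of 69, whose transcripts lack a poly(A) tail, had a median of -0.10 and library medians of -0.31, -0.03 and 0.04. These shifts were largest in TCA replicate 1. Without it, the ribosomal median was -0.021 with 28 of 81 above 0, against 10 with it. The respiratory median was then -0.029 with 20 of 79 above 0, against 6, and the histone median -0.0095 with 30 of 66, against 6. Relative to the Cort mean, ribosomal medians were 0.11, 0.02 and -0.13 in the Cort libraries and 0.13, 0.21 and 0.04 with both agents. Respiratory medians were 0.07, 0.02 and -0.10 with Cort and 0.11, 0.16 and 0.02 with both agents. The 2 groups overlapped for both lists, and Cort replicate 3 was the lowest library.

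**Figure D3:**
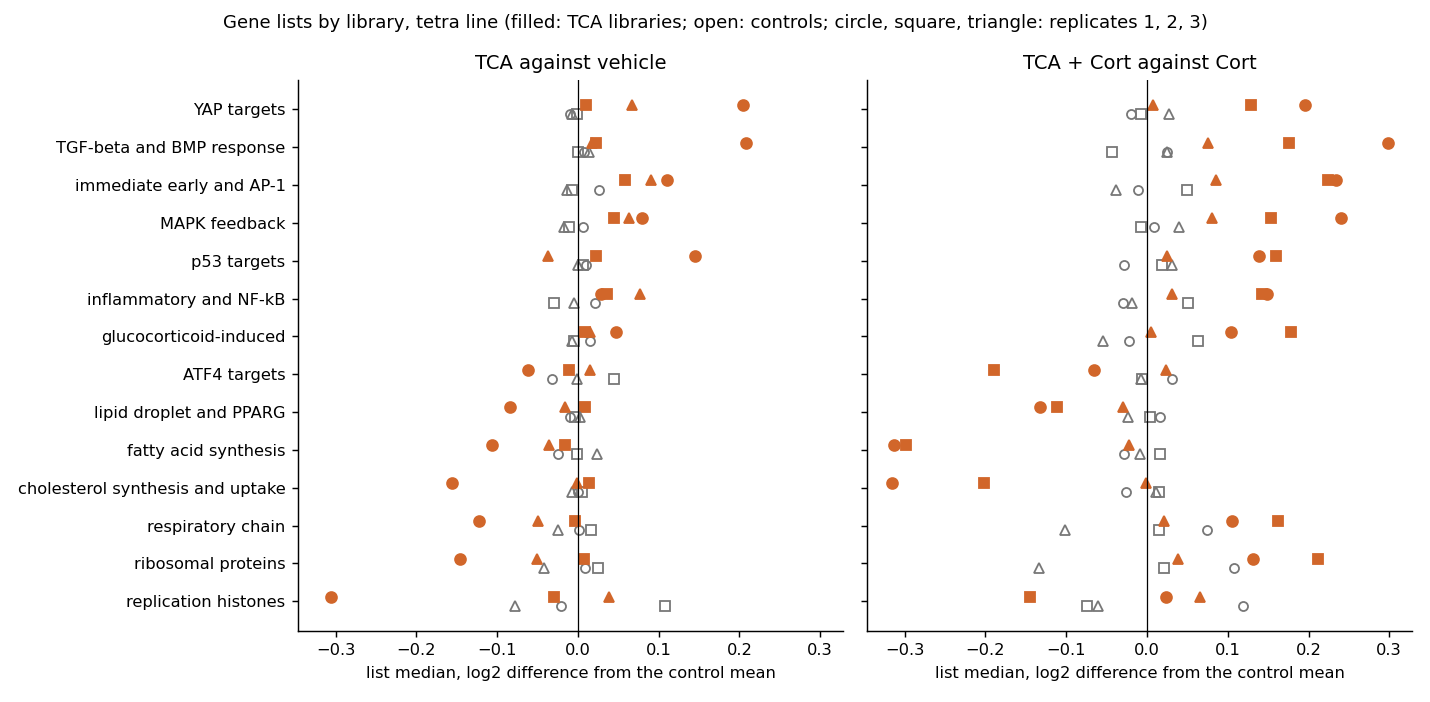
Median log2 value (horizontal axes) of 14 gene lists in each tetra library, relative to the mean of vehicle for the libraries without Cort and of Cort for those with it. Filled points are libraries with TCA, open points their controls, and the shape gives the replicate. In the left panel TCA replicate 1 (filled circle) is the farthest from 0 of the TCA libraries for the YAP, TGF-beta, cholesterol, ribosomal and respiratory lists.

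The response to TCA differed between the 2 receptor lines in both size and direction. In the line with GFP-mGRwt, TCA against vehicle called 7303 of 12725 genes (57.4%), 3670 higher (28.8%) and 3633 lower (28.6%). The TCA effect differed between lines for 5115 of 12202 genes (41.9%) by limma's interaction contrast, 2612 higher in tetra (21.4%) and 2503 lower (20.5%). Each effect was taken within its own table, since the tables were scaled separately. Scaled instead to total exon reads without Rn45s and small RNAs, 5410 genes differed, 2038 higher and 3372 lower. Over the same 12202 genes the TCA effects on log2 of the count plus 1 had an SD of 0.148 in tetra and 0.528 in wt, and 8 genes in tetra against 675 in wt differed by more than 1 on the log2 scale. No label names a batch, and anything else that the 3 wt libraries with TCA share cannot be told apart from TCA. Tetra and wt effects had a Pearson r of 0.0137 and a Spearman rho of 0.0186 across genes.

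Ccn1 and Ankrd1 fell with TCA in the wt line. Ccn1 measured 5222, 4986 and 5338 counts with vehicle and 3527, 3294 and 4117 with TCA in wt (adjusted p = 1.92e-05, limma). On log2 of the count plus 1, its TCA effect was 1.21 in tetra and -0.51 in wt, a difference of 1.73 (adjusted p = 3.76e-09, limma). Ankrd1 measured 3380.1, 3116 and 2959 counts with vehicle and 1918, 1914 and 1802 with TCA in wt (adjusted p = 7.97e-08, limma). Its effects were 0.86 and -0.75, a difference of 1.60 (adjusted p = 3.95e-08, limma). In wt every TCA library lay below every vehicle library for both genes, and in tetra every one lay above. Plk2 and Ptgs2 also had higher TCA effects in tetra than in wt, by 0.84 and 1.04, and Dusp8 a lower one, with a difference of -0.39. The call of Dusp8 was lost in 6 of 17 alternatives, with adjusted p up to 0.0823 in limma, among them leaving out vehicle replicate 1 or TCA replicate 2 or 3 in tetra, or vehicle or TCA replicate 3 in wt. Over all leave-outs of a library its difference was -0.48 to -0.25.

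Genes with large called differences between the lines were chosen with a mean of at least 50 in each line and wt groups without overlap. This choice asked for wt groups without overlap and set no condition on the tetra groups, so their smaller tetra effects follow in part from it. Tpsab1, a tryptase gene, measured 4195, 4628 and 3688 counts with vehicle and 2591, 3876 and 4300.1 with TCA in tetra. In wt it measured 35083, 33439 and 38132 with vehicle and 913, 762 and 1559.9 with TCA. Pde4b, a cyclic AMP phosphodiesterase, measured 67.4, 81.7 and 64.9 counts with vehicle and 64.4, 99.4 and 85.6 with TCA in tetra. In wt it measured 10.9, 20 and 20.9 with vehicle and 257, 249 and 232 with TCA. Neither gene was called in tetra, where the deposited values differed by -0.22 and 0.07. Tenm4, a teneurin adhesion protein, had an effect of 0.14 in tetra and 3.07 in wt on log2 of the count plus 1, and Trib3 0.01 and 2.12. Of 32 ATF4 targets tested in both lines, 27 had a TCA effect called lower in tetra than in wt, beside 20.5% of all genes tested. Of 12 tested genes of the proliferin, tryptase and Serpinb families, all 12 had an effect called higher in tetra, beside 21.4% of all genes tested. Near-identical Prl2c copies can share reads and are uncertain one by one. The lists were chosen with earlier results of these data known, and in wt all 13 tested members of this one were called lower. The count of 12 is thus a description and no separate support. A higher effect here does not mean a rise, since on the deposited scale 0 of the 12 were above 0 in tetra, at a median of -0.079. Of the 12, 0 were called lower in tetra, and their medians by TCA replicate were -0.28, -0.0019 and -0.06. In wt 0 of 13 tested were above 0, at a median of -2.06. Without TCA replicate 1 the tetra median was -0.021, with 4 above 0.

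**Figure D4:**
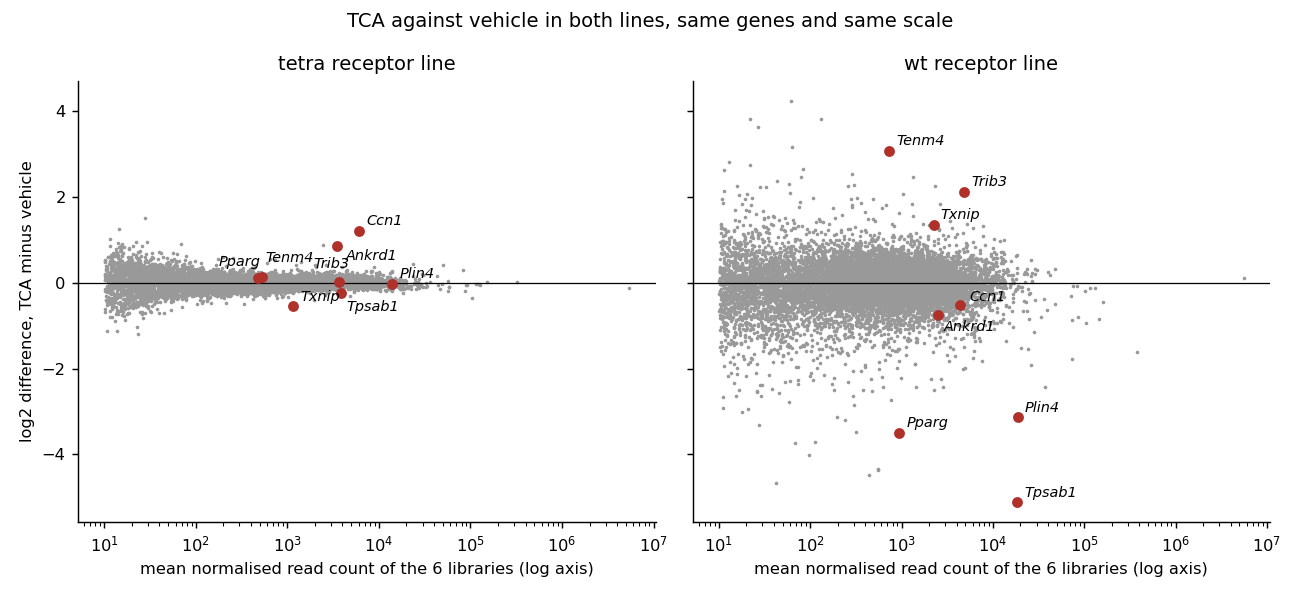
Difference of TCA against vehicle on log2 of the count plus 1 (vertical axis) against the mean normalised count of 6 libraries (horizontal log axis) in the tetra line and the wt line, for the same genes and on the same scales. Grey points are genes and red points named genes. The cloud is narrow in tetra, with Ccn1 and Ankrd1 above it, and wide in wt.

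**Figure D5:**
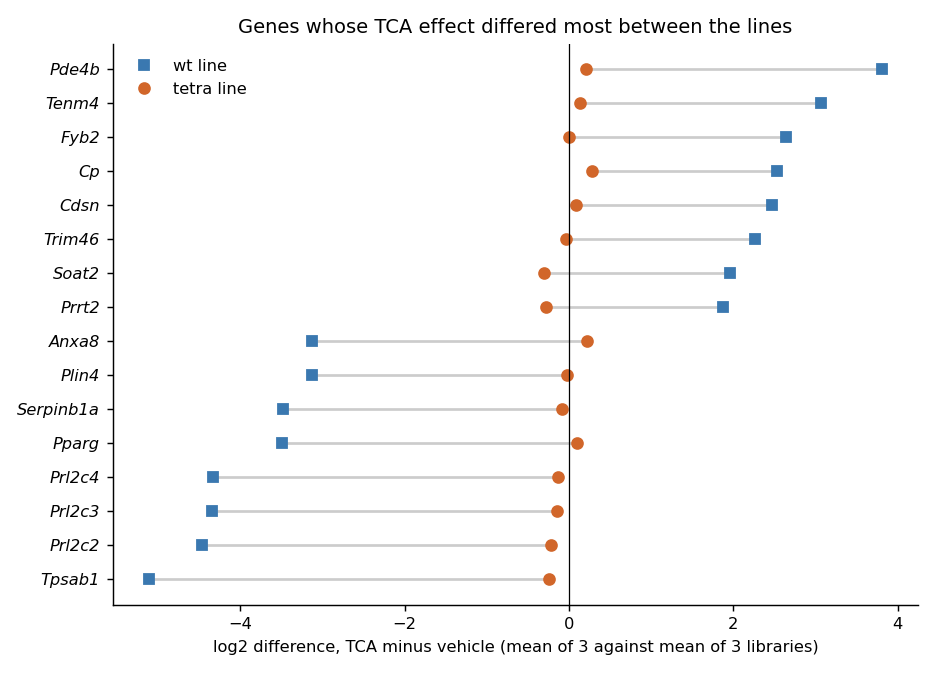
Difference of TCA against vehicle on log2 of the count plus 1 (horizontal axis, mean of 3 against mean of 3 libraries) in tetra (circles) and wt (squares). Shown are the 8 genes in each direction with the largest called differences between lines among those that passed further conditions. These were a mean of at least 50 in each line, no Gm or Rik symbol and wt groups without overlap, the last of which favours wt changes. The tetra points lie close to 0, such as 0.20 for Pde4b against 3.81 in wt.

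The authors' deposited table for this comparison lists 9 genes with an adjusted p below 0.05, all higher with TCA. In the authors' deposited table the log2 fold changes were 1.22 for Ccn1, 0.88 for Ankrd1, 0.57 for Inhba, 0.57 for Dusp1, 0.48 for Dusp8, 0.48 for Trib1, 0.42 for Plk2, 0.37 for Smad7 and 0.37 for Jun. All 9 are among the 16 genes called here in the fit over 12 libraries, which adds 6 libraries to those of the authors' comparison.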

How the data were processed

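Total RNA was depleted of ribosomal RNA and sequenced from stranded libraries, per the labels' protocols. Per the submitters' processing notes, the tools were cutadapt, STAR 2.7.0f and HOMER 4.10.4 with the mm10 build. Per the file headers, HOMER counted exon reads per gene, and the authors deposited expression values near a log2 scale after a variance-stabilising transformation, made per table. The strand setting of the counting is not given in the sources used here, so reads of overlapping antisense genes cannot be told apart. The authors also deposited their log2 fold changes with p-values and adjusted p-values for this comparison. Read counts were recovered by inverting the transformation. Among recovered values under 1000 reads, 100% came out within 0.01 of a whole number in each library. Rn45s, the ribosomal RNA precursor, held 19.6% to 23.8% of the exon reads of the 6 libraries.

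Genes with a mean of at least 10 normalised counts were tested on the deposited values with limma 3.58.1 in R 4.3.3, using an intensity trend and Benjamini-Hochberg adjustment over all genes tested, at 0.05. Other steps used Python 3.11.15, pandas 2.3.3, numpy 2.4.6 and matplotlib 3.10.9. The difference between lines, the comparison with Cort and the fit over 12 libraries used log2 of the recovered count plus 1. Names followed a rule: up to 15 called genes in each direction with non-overlapping groups and a mean of at least 50, up to 8 in each direction for the difference between lines, up to 4 per list by adjusted p, and a fixed panel. For the difference between lines, the mean of at least 50 held in each line and only the wt groups had to be free of overlap. Gm and Rik symbols were left out of the called genes named. Genes called with Cort or over 12 libraries, genes counted in both TCA contrasts, and the TEAD, CArG, AP-1 and CRE motifs were added after values were seen. The members and the 39 gene lists were chosen with earlier results of these data known. Correlations of same-numbered libraries were checked in 3 comparisons (TCA in tetra, TCA with Cort and TCA in wt). They did not settle whether the numbers pair samples, and the fit without that block is the one reported. Alternatives were another pseudocount, voom, no trend, other scalings, other filters and leaving out each library. Promoters came from RefSeq on GRCm38.p6. Scripts were tested on simulated data. Some genes counted in the totals are not reported here by name.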

Additional observations from a re-analysis of the deposited data

Results flagged for a closer look

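The results in this section were picked out because the effect of TCA differed between the tetra and the wt line, by limma's interaction contrast, for 5115 of the genes tested in both. Values are the tetra effect minus the wt effect on log2 of the count plus 1. Every gene named here passed an adjusted p below 0.05, and each line's effect was taken within its own table. No label names a batch, and the part of library handling in these differences was not tested.

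The YAP targets Ccn1 and Ankrd1 differed by 1.73 and 1.60, with tetra effects above 0 and wt effects below. Plk2 differed by 0.84, Dusp1 by 0.46 and Ptgs2 by 1.04, and Klf6, a Krüppel-like factor, by 1.11. Dusp8 differed by -0.39, with effects of 0.48 in tetra and 0.86 in wt. The calls of Dusp1 and Dusp8 were lost in 7 and 6 of 17 alternatives, for Dusp1 among them on the deposited scale, where the difference was 0.216. Txnip differed by -1.91, at -0.55 in tetra and 1.35 in wt. The ATF4 targets Trib3 and Chac1 differed by -2.11 and -1.90, with wt effects of 2.12 and 1.83.

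The next genes had the largest differences among those with a mean of at least 50 in each line and wt groups without overlap. Tpsab1 differed by 4.87 and the proliferin genes Prl2c2, Prl2c3 and Prl2c4 by 4.25, 4.20 and 4.19, and near-identical copies make these last 3 uncertain one by one. The fat cell genes Pparg and Plin4 differed by 3.59 and 3.11, the protease inhibitor Serpinb1a by 3.41 and the annexin Anxa8 by 3.35. In the other direction, Pde4b differed by -3.61, Tenm4 by -2.93, Fyb2 by -2.64 and Cdsn, which encodes corneodesmosin, by -2.39. Trim46 differed by -2.30, Soat2, an enzyme of cholesterol esterification, by -2.26, Cp, which encodes ceruloplasmin, by -2.24, and Prrt2 by -2.17. Tetra effects of these last 16 genes lay between -0.30 and 0.29.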

How the results depend on the processing

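With 3 libraries per group, the TCA calls depended on single libraries and on the filter. The 2 genes called with TCA alone became 1 when libraries were scaled to total exon reads, where Ankrd1 had an adjusted p of 0.0659 and the median of all genes shifted by 0.0214. Without a filter on low values there were 18, of which 0 were among the 2, and Ccn1 had an adjusted p of 0.401. Leaving out each library gave 1 to 6. The other settings (both pseudocounts, voom, no trend, a mean of at least 50 and scaling without Rn45s and small RNAs) kept the same 2 genes. Over all 15 alternatives Ccn1 was called in 14, with adjusted p from 4.13e-13 to 0.401, and Ankrd1 in 10, from 6.56e-08 to 1. A replicate block gave 11 calls with TCA alone, 9 higher and 2 lower, and 77 with Cort, 57 higher and 20 lower. It gave 7708 in wt and 4937 between lines. Deviations of same-numbered libraries had correlations of -0.209, 0.120 and -0.393 for vehicle and TCA in tetra, 0.134, 0.0544 and 0.223 for Cort and TCA plus Cort, and 0.0193, 0.0394 and 0.127 in wt. Pairs with different numbers were compared only for vehicle and TCA in tetra, at -0.142 to 0.354. Whether the numbers pair samples with Cort and in wt is therefore not settled by these values.

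Leaving out each library gave 1 to 268 with Cort, 11 to 37 over 12 libraries, 6434 to 7586 in wt and 4385 to 5137 between lines. These fits with Cort and over 12 libraries were chosen after seeing the data. Scaling moved the count between lines to 5410, with the median shifted by -0.0876, and the other settings left it between 4806 and 5589. The difference between lines was no longer called for Dusp1 in 7 of 17 alternatives (adjusted p up to 0.0988, 0.33 to 0.58 over leave-outs) and for Dusp8 in 6 (up to 0.0823, -0.48 to -0.25). For Dusp1 these included leaving out vehicle replicate 3 or TCA replicate 3 in tetra, or vehicle replicate 1 or 3 or TCA replicate 2 in wt. Among genes not called with TCA alone, the direction turned when a library was left out for Trib3 (-0.047 to 0.058), Nr1h4 (-0.075 to 0.043), Plin4 (-0.060 to 0.037), Prl2c3 (-0.16 to 0.030), Orm3 (-0.043 to 0.0018), Gpbar1 (-0.0097 to 0.071), Klf9 (-0.010 to 0.034), Chac1 (-0.20 to 0.11), Vdr (-0.061 to 0.12) and Fabp4 (-0.25 to 0.0023). Plin4 also turned under total scaling, to 0.0017. Over the 58 genes named for TCA alone, 829 of 866 values kept direction and side of the threshold, 14 came to pass it, 6 no longer did and 17 turned. The cause of these changes was not tested.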

Other observations

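Beyond the genes described, TCA libraries lay above their controls without overlap, both without and with Cort, for further members of a group of 59 genes (0.48%), and those named here were picked after their values were seen and were not called. Actg1, a cytoplasmic actin, differed by 0.16 without and 0.23 with Cort, Tpm4, a tropomyosin, by 0.13 without and 0.14 with Cort, and Lima1, an actin-binding LIM protein, by 0.23 without and 0.25 with Cort. Vgll3, a cofactor of TEAD proteins, differed by 0.25 without and 0.17 with Cort, Plau, the urokinase gene, by 0.21 without and 0.14 with Cort, and Ptx3, a secreted pentraxin, by 0.17 without and 0.79 with Cort. The first value is on the deposited scale and the second on log2 of the count plus 1.

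The 41 genes lower in both (0.334%) were 6.50% of those lower without Cort, near the 5.2% lower with Cort over all genes tested. Those named here were picked after their values were seen and were not called. They were Rgs2, a regulator of G protein signalling, at -0.14 without and -0.25 with Cort, Ccng2, a cyclin, at -0.15 without and -0.23 with Cort, H1f0, a linker histone, at -0.19 without and -0.17 with Cort, and Scd2, a fatty acid desaturase, at -0.06 without and -0.24 with Cort. Over 12 libraries, 23 of 24 cholesterol genes were below 0 with a median of -0.11, and 0 of them were called.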
